A study of Caenorhabditis elegans with 6 samples.

Results

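The regions described here are those where HAM-1, a nuclear protein with a winged-helix domain, was found on chromosome III of the nematode Caenorhabditis elegans, as a HAM-1::GFP fusion. Members were all regions of the authors' combined list whose chromosome is III, which gave 1491 of 8430 regions, or 17.7% (95% Wilson interval 16.9 to 18.5%, counting error only). The same rule took 5431 of 30000 regions in the list of ChIP replicate 1, 5427 of 30000 in replicate 2 and 5117 of 29621 in replicate 3. Binding was mapped by chromatin immunoprecipitation and sequencing (ChIP-seq) in whole hermaphrodites at the L4 larval stage. All samples are strain OP102, which carries the unc-119(ed3) mutation and the transgene wgIs102. The transgene holds ham-1 fused to TY1, EGFP and FLAG tags, together with a working unc-119(+) gene, and ChIP and input samples share both mutation and transgene. The ChIP group has 3 samples, precipitated with antibodies against GFP. The input group has 3 samples of unprecipitated DNA, which were not analysed here. The transgene was introduced by particle bombardment into unc-119 worms without outcrossing, and per the labels the fusion shows the spatial and temporal pattern of ham-1. Lysates of whole animals mix all tissues, and a region listed here need not be bound in every cell type. The gene table given with the data, on assembly WBcel235, puts ham-1 on chromosome IV and unc-119 on chromosome III. DNA of the chromosomal unc-119 gene and of its copy in the transgene cannot be told apart in these lists. All coordinates are on WormBase build WS220. Genes at these positions and the DNA sequence of the regions were not analysed here, since the gene table is on another build.

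HAM-1 is needed for neuroblasts to divide asymmetrically, so that a daughter cell fated to die and a daughter cell fated to become a neuron receive different fates. It acts at least partly in the nucleus, where it promotes expression of the kinase gene pig-1. The autosomes of the worm, chromosome III among them, have a gene-rich central part with little recombination and 2 outer arms with more repeats and more recombination. Chromosomes of the worm are holocentric, so the middle of chromosome III is not a centromere.

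Chromosome III carried HAM-1::GFP regions at a higher density than the other chromosomes in all 4 lists. In the combined list it held 108 regions per Mb, against 80.3 per Mb on the other 5 nuclear chromosomes together, a ratio of 1.35. Chromosome X was close to III in that list, at 102.5 per Mb, followed by I at 92.9, while IV had 69.7 and V had 59.7. The ratio was 1.39 in replicate 1, 1.39 in replicate 2 and 1.31 in replicate 3, or 1.36 ± 0.044 (SD, n = 3). Each replicate list placed III ahead of every other chromosome, at 394 regions per Mb in replicate 1, 394 in replicate 2 and 372 in replicate 3. Chromosome I came next, at 343, 348 and 332 regions per Mb. The excess was larger than the spread between replicates and had the same direction in 3 of 3 lists. An exact sign-flip permutation test over the 3 replicates gave p = 0.25 (two-sided, adjusted p = 0.5 over 8 tests), and 0.25 is the smallest p that 3 replicates allow. Merged into separate stretches, so that overlapping regions count once, III had 101.3 per Mb, X 93.8 and the other 5 chromosomes together 74.3. Regions covered 573 kb of III, or 4.16% of its 13.8 Mb, against 3.97% of X and 3.09% of the other 5 chromosomes together. In the replicate lists coverage was 15.6% ± 0.85 on III, 13.8% ± 0.53 on I and 11.5% ± 0.24 on the other 5 together (SD, n = 3).

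The higher density of III was seen among strong and weak regions, and in the replicate lists it was larger among the weakest. The authors' order of regions, in which place 1 is the strongest, was read from the number in each region's name. Chromosome III held 50 of the 250 strongest combined regions, or 20.0% (Wilson interval 15.5 to 25.4%). It held 132 of the next 750, or 17.6%, and 436 of the 2430 weakest, or 17.9% (16.5 to 19.5%). These intervals overlap, and the density ratio lay between 1.28 and 1.57 in the 6 classes of place examined. In replicates 1, 2 and 3 the ratio was 1.45, 1.47 and 1.36 from place 21001 onwards, against 1.31, 1.36 and 1.25 in the first 3000 places. The weakest class was thus higher in 3 of 3 lists, at 1.43 ± 0.055 against 1.30 ± 0.054 (SD, n = 3), a difference that was not tested. Of the chromosome III regions, 182 or 12.2% stood within the first 1000 places of the combined list, against 818 or 11.8% on the other chromosomes and 11.9% of all regions. In the replicate lists these shares were 3.15%, 3.41% and 3.36% on III and 3.37%, 3.32% and 3.34% on the others. The difference changed sign between replicates and averaged -0.036 ± 0.17 percentage points (SD, n = 3; exact sign-flip permutation p = 1, adjusted p = 1). Chromosome X, which is longer, held more of the strongest regions than III. In the combined list 69 of the first 250 places, or 27.6%, were on X. In replicates 1, 2 and 3 X had 72, 73 and 73 of these places, and III had 48, 53 and 44. Within the first 1000 places of these lists stood 3.89%, 4.15% and 4.01% of the X regions.

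Regions were not spread evenly along the chromosome. The chromosome was divided by region midpoint into 3 equal parts, with borders after 4590520 and 9181040. The central part held 598 combined regions, or 40.1%, the right part 473 or 31.7% and the left part 420 or 28.2%. These are 130.3 regions per Mb in the centre, 103 on the right and 91.5 on the left. In 20 equal parts of 689 kb, counted from the left end, the fullest was part 9 (5508625 to 6197202), with 117 combined regions. Part 13 (8262937 to 8951514) had 109, part 6 (3442891 to 4131468) 103 and part 11 (6885781 to 7574358) 100. The emptiest in the combined list were part 4 (2065735 to 2754312) with 42, part 2 with 45 and part 18 (11705827 to 12394404) with 46. Part 9 was also, in the replicate lists, the fullest on average, at 532 ± 21.4 regions per Mb, while the emptiest were part 2 at 287 ± 10.2 and part 1 at 294 ± 18.2 (SD, n = 3). Part 4 had 328 ± 26.6, and each of these differences from part 9 was larger than the spread between lists. Dense and sparse parts also alternated within the centre. Part 10, next to the fullest and the third lowest, had 303 ± 1.68 regions per Mb in the replicate lists, lower than the 368.9 ± 17.8 of part 15 on the right. The last part at the right end held 83 combined regions, more than any of the first 5 parts at the left end, which held 42 to 61. The replicate lists showed this only against parts 1 to 4. Part 20 had 413 ± 17.2 regions per Mb and part 5 had 444 ± 53.0 (SD, n = 3), with part 5 higher in replicates 1 and 2.

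**Figure D1:**
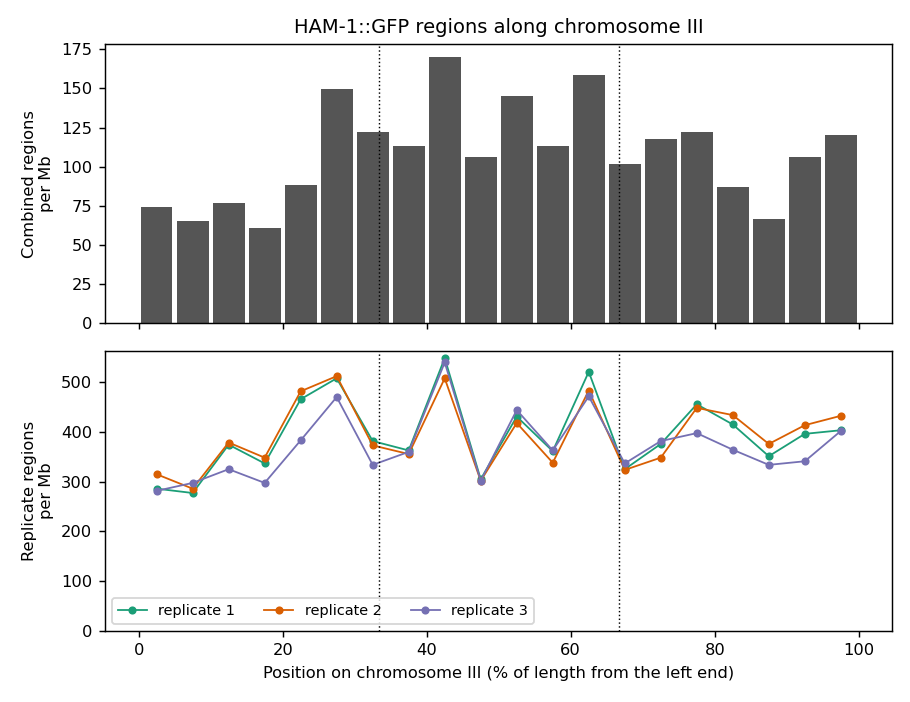
Regions per Mb in 20 equal parts of chromosome III, by position as a percentage of its length: combined list as bars above, the 3 replicate lists as lines below; dotted lines mark the 3 equal parts. The fullest part lies at 40 to 45% of the length with 117 combined regions, and it is the highest part in replicates 1 and 3 and the second in replicate 2.

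The central excess of chromosome III was smaller than on the other 4 autosomes as a group, and it differed between strong and weak regions. In the combined list the central part was 1.34 times as dense as the outer parts on III and 1.64 times on chromosomes I, II, IV and V together. Chromosome by chromosome the combined ratio was 1.60 on I, 1.66 on II, 1.33 on IV and 2.03 on V, so that IV was as low as III. Chromosome IV had 1.15, 1.07 and 1.22 in replicates 1, 2 and 3, in each list above III and below I, II and V. In replicates 1, 2 and 3 the ratio was 1.06, 0.98 and 1.12 on III, against 1.29, 1.22 and 1.36 on the other autosomes. The log2 difference between III and the other autosomes was -0.29, -0.32 and -0.28 in replicates 1, 2 and 3, and -0.29 in the combined list. It was negative in 3 of 3 replicates, with a mean of -0.30 ± 0.018 (SD, n = 3; exact sign-flip permutation p = 0.25, the smallest possible, adjusted p = 0.5). On III alone the log2 ratio averaged 0.07 ± 0.096 in the replicate lists (SD, n = 3), positive in 2 of 3 lists (exact sign-flip permutation p = 0.5, adjusted p = 0.8), and this test cannot reach a p below 0.25. The central part held 34.6%, 32.9% and 35.8% of the III regions in replicates 1, 2 and 3. On chromosome X the ratio of central to outer density was 1.03 in the combined list, lower than on III. In replicates 1, 2 and 3 it was 1.02, 1.01 and 1.08 on X. The means over these lists were 1.04 ± 0.038 on X and 1.05 ± 0.070 on III (SD, n = 3).

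The full replicate lists mix strong regions that were denser in the centre with weak regions that were denser outside it. Within the first 3000 places the central part of III was 1.37 ± 0.075 times as dense as the outer parts (SD, n = 3). From place 3001 to 9000 the ratio was 1.36 ± 0.036 and from 9001 to 15000 it was 1.20 ± 0.045. From 15001 to 21000 it was 0.94 ± 0.053 and from 21001 onwards 0.80 ± 0.13, below 1 in all 3 lists. The other autosomes went down the same way, at 1.63 ± 0.0038, 1.67 ± 0.093, 1.41 ± 0.057, 1.21 ± 0.10 and 0.98 ± 0.072 in the same classes. In each class the mean of III was below that of the other autosomes. Chromosome III regions of the replicate lists that met the combined list had a central ratio of 1.37 ± 0.032, and those that did not had 0.91 ± 0.080 (SD, n = 3). Agreement between replicates also declined along the order, to 34.9% of III regions met by both other lists from place 21001 onwards, and its part in the ratio was not tested.

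**Figure D2:**
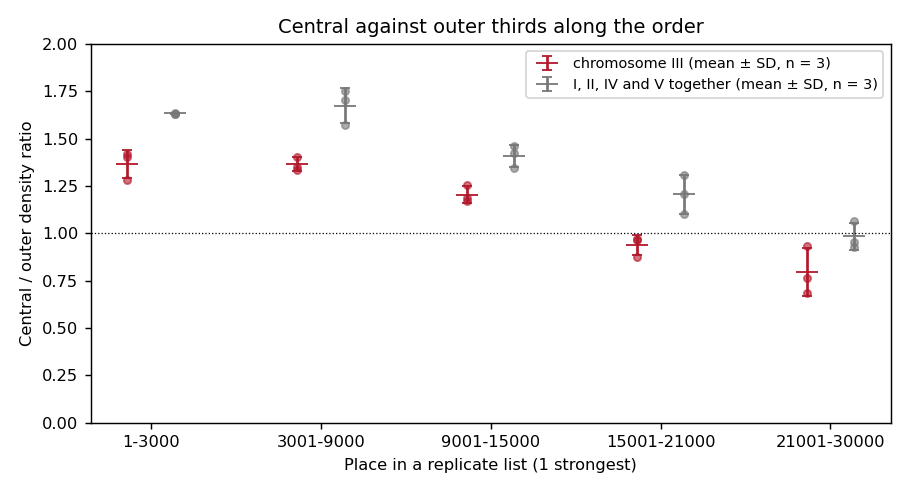
Ratio of region density in the central part to that in the outer parts, by class of place in the replicate lists, for chromosome III (left in each pair) and the other 4 autosomes together; points are replicates and bars mean ± SD. The ratio on III is 1.37 in the first 3000 places and 0.80 from place 21001 onwards, and lies below the other autosomes in every class.

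The left part had slightly fewer regions than the right one. The ratio of left to right was 0.89 in the combined list and 0.98, 0.98 and 0.95 in replicates 1, 2 and 3 (log2 mean -0.04 ± 0.026, SD, n = 3; exact sign-flip permutation p = 0.25, adjusted p = 0.5). Among the first 1000 places of the combined list the left part had 51 regions, the right part 52 and the central part 79. In the strongest 25% of the combined list the left part was ahead, with a ratio of 1.10. The replicate lists did not show this on average, though their classes of place are other cuts. The ratio was 0.92 ± 0.11 in the first 3000 places, with 0.81, 0.92 and 1.03 in replicates 1, 2 and 3. It was 0.82 ± 0.12 from place 3001 to 9000 and 1.08 ± 0.062 from 21001 onwards (SD, n = 3).

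Chromosome III had few windows without regions, while its fullest windows were much like those of other chromosomes. Of its 276 windows of 50 kb, 13 or 4.71% held no combined region, against 333 of 1732 or 19.2% on the other chromosomes. Chromosome X, the closest to III in density at 102.5 regions per Mb, had 11.3% empty windows, and the other autosomes had 21.3%. In the replicate lists 1 window of III was empty in each list, or 0.362%, against 8.89%, 7.97% and 4.97% of windows on the other chromosomes in replicates 1, 2 and 3. It was the same window in the 3 lists, from 7400001 to 7450000. On X 2.82%, 2.82% and 1.69% of windows were empty in replicates 1, 2 and 3, and on I 4.30%, 3.64% and 1.32%. The fullest window of III held 17 combined regions, which was fewer than on I (19), II (24), V (21) and X (21) and more than on IV (15). In replicates 1, 2 and 3 it held 44, 47 and 50 regions, against 49, 49 and 48 in the fullest window of the other 5 chromosomes. Counts per window varied least on III: the coefficient of variation was 0.69 in the combined list, against 0.79 to 1.18 on the other 5 chromosomes. In the replicate lists it was 0.49 ± 0.019 on III and 0.57 ± 0.018 on chromosome I, the next lowest (SD, n = 3). Windows with 10 or more regions were also more frequent on III, at 16.3%, against 12.7% on X, 11.6% on I and 8.83% on the other 5 chromosomes together. The part of density in the share of empty windows was not tested, and no test was made of that share.

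**Figure D3:**
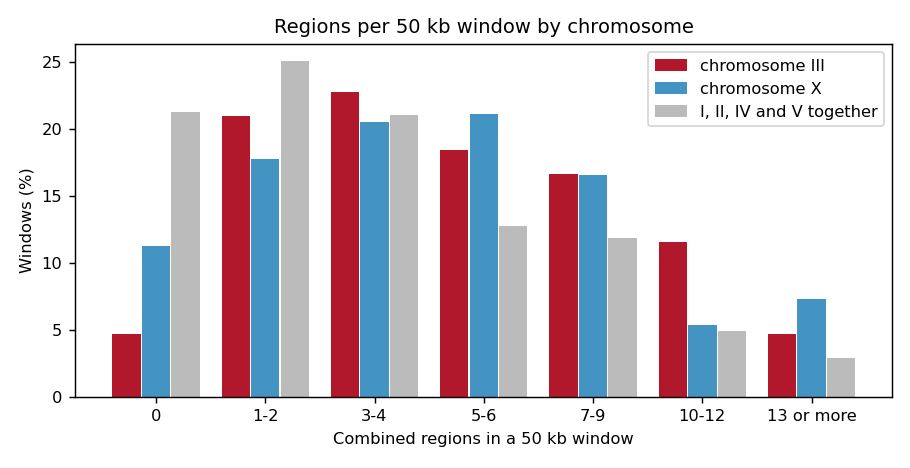
Share of 50 kb windows by number of combined regions, for chromosome III, chromosome X and the other 4 autosomes together. Empty windows make up 4.71% on III, 11.3% on X and 21.3% on the other autosomes, while windows of 13 or more make up 4.71%, 7.32% and 2.90%.

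The densest windows of chromosome III in the combined list all lay in its central part. The windows from 5900001 to 5950000 and from 8750001 to 8800000 each held 17 combined regions in 15 separate stretches. The window from 6350001 to 6400000 held 16, that from 7700001 to 7750000 held 15 and that from 6100001 to 6150000 held 14, a count that 4 windows shared. In the replicate lists these 5 windows held 31 to 43 regions each, against a mean of 19.3 ± 0.65 per window of III (SD, n = 3). Their best combined places were 398, 141, 639, 444 and 964, so none held one of the 25 strongest sites of III. By the replicate lists the fullest window was another one in each: 10600001 to 10650000 on the right in replicate 1 (44 regions), 13700001 to 13750000 on the right in replicate 2 (47) and 5800001 to 5850000 in the centre in replicate 3 (50). Windows with 10 or more combined regions numbered 24 in the central part, 12 on the right and 9 on the left.

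The empty stretches were short and did not gather at the chromosome ends. Empty windows numbered 5 on the left, 5 in the centre and 3 on the right, and the single run of 2 was at 6700001 to 6800000. The longest stretch without a combined region ran from 9963464 to 10090489, or 127026 bp. On the other chromosomes the longest was 259653 bp on IV, 264669 bp on X, 271490 bp on I, 394412 bp on V and 675323 bp on II. The next lay at 2172410 to 2291127 (118.7 kb), 1284984 to 1392733 (108 kb), 6695510 to 6802991 (107 kb) and 12714086 to 12818222 (104 kb). The replicate lists were not empty there. The 127 kb stretch held 8, 4 and 8 regions in replicates 1, 2 and 3, the best at places 3378, 1343 and 2790. The stretch at 2172410 held 17, 19 and 22 regions, with best places of 10806, 9993 and 11593. Stretches free of regions in all 3 replicate lists at once were shorter still on III, at most 65.9 kb (6732011 to 6797874). On the other chromosomes the longest such stretch ran from 142 kb on I to 293 kb on V. The outermost combined regions lay 14.6 kb from the left end and 4.42 kb from the last listed coordinate on the right.

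Neighbouring regions were slightly closer together on III than on the other 5 chromosomes together, though not closer than on X throughout. Between its 1395 separate stretches, 290 of 1394 gaps were 1 kb or less, or 20.8%, against 1176 of 6418 or 18.3% on the other chromosomes and 18.8% of all gaps. The difference was 1.22, 2.74 and 0.61 percentage points in replicates 1, 2 and 3, or 1.53 ± 1.10 (SD, n = 3), and went the same way in 3 of 3 lists (exact sign-flip permutation p = 0.25, the smallest possible, adjusted p = 0.5). The median gap was 3514 bp on III, 3421 bp on X and 3702.5 bp on the other 5 chromosomes together, while the longest 10% of gaps began at 27527 bp on III and at 34921 bp elsewhere. Regions with at most 1 kb between neighbours formed 24 groups of 4 or more on III, and 653 regions or 43.8% had such a neighbour, against 44.5% on X and 41.4% on the other 5 chromosomes together. The largest groups had 7 regions each, from 9617729 to 9623357 and from 12612226 to 12617311, and each holds one of the 25 strongest sites of III. The first of these met 10, 8 and 8 regions of replicates 1, 2 and 3, and the other met 10, 8 and 9. A group of 6 from 10903052 to 10908934 held weaker regions, with a best combined place of 2809. Whether this group lies at unc-119, which the transgene also carries, was not tested. Repeated entries were also present, since 38 combined regions of III share start and end with another, at 19 sites, so that 1472 are distinct. On X 88 regions did so. Gaps were measured after merging and do not count repeats. The groups and the shares with a neighbour do count them, so that each repeated entry has a neighbour by itself. The group from 10903052 to 10908934 includes 2 entries with identical borders, from 10904104 to 10905574.

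The strongest sites of chromosome III were alike in strength and position in the 3 replicates. The strongest region of the whole combined list lies on III from 3866897 to 3867831, in the left part, and stood at places 1, 8 and 3 of replicates 1, 2 and 3. It is also in a crowded place, with 8 other combined regions within 10 kb, the best of them at place 343. The next on III lies from 10758900 to 10759416, at combined place 3 and replicate places 8, 12 and 1, with 1 neighbour within 10 kb. Then follows 7854404 to 7854829, at combined place 8 and replicate places 11, 6 and 4. The site from 8043711 to 8044129, at combined place 16, stood at 17, 16 and 17, and no other combined region lay within 13970 bp of it. The site from 12904887 to 12905322, at combined place 17, stood at 19, 22 and 16. The remaining 5 of the first 10 were at 4475431 to 4475831, 5678908 to 5679275, 5018059 to 5018481, 4899610 to 4900152 and 2785843 to 2786252. Their combined places were 23, 28, 30, 36 and 37, and no replicate put any of them below place 42. All 10 ranked near the top of each list. The combined list comes from these 3 replicates and does not measure them independently.

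Places spread out further down in absolute number. In proportion the first 2 sites spread most of the 25, at replicate places 1, 8 and 3 and 8, 12 and 1. The 11th to 25th sites of III had combined places 40 to 117, and their lowest place in any replicate was 255, at 6971834 to 6972228, which stood at 108, 95 and 255. Among these 15 the site from 12612226 to 12612887 differed most in proportion, at 90, 200 and 35. Of the 25 sites, 9 lay in the left part, 7 in the centre and 9 on the right. Of the first 10 alone, 3 lay on the left, 5 in the centre and 2 on the right, and these numbers are too small to set beside the 40.1% central share of all combined regions. The closest pair, at 13062244 to 13062823 and 13070320 to 13070890, had midpoints 8.07 kb apart and stood at combined places 45 and 59. Replicate regions at these sites lay nearly on top of each other. At 17 of the 25 sites each list had 1 overlapping region. At the others at least 1 list had 2, and the values below use 1 region per list. Midpoints of the 3 replicate regions differed by 4 to 126.5 bp, with a median of 13.5 bp. At all 25 sites the combined region enclosed the 3 replicate regions, and replicate 3 had the narrowest of them. Median width over all III regions was likewise lowest in replicate 3, at 444 bp, against 460 and 476 bp in replicates 1 and 2. The strongest site had the widest combined region of the 25, at 935 bp, but its replicate regions were 517, 508 and 400 bp wide. The site from 9618916 to 9619777 was wider in all 3 replicates, at 684, 718 and 511 bp.

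**Figure D4:**
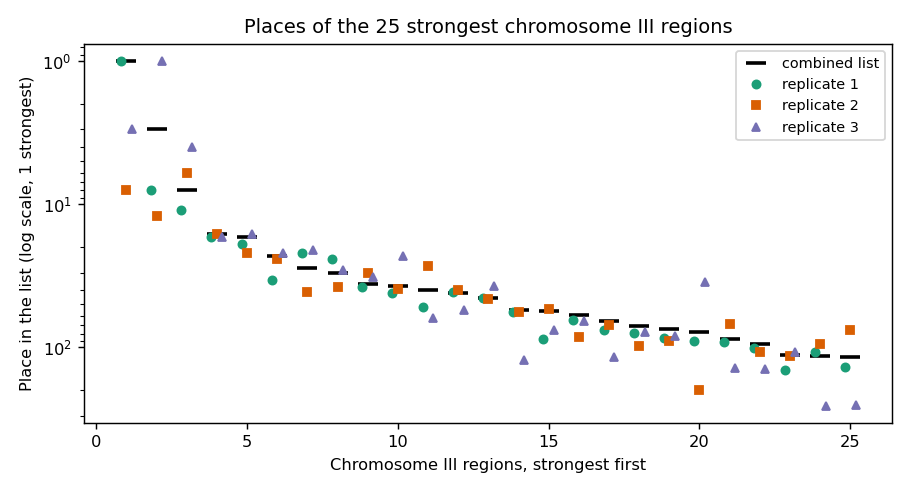
Places of the 25 strongest chromosome III regions in the combined list (bars) and the 3 replicate lists (symbols), on a log scale with place 1 at the top. The first 10 stay within place 42 in each replicate, and among the other 15 the widest spread in proportion is at the 20th site, with places of 90, 200 and 35.

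Strong regions of III had slightly more neighbours than the rest, which was not tested. The 182 regions within the first 1000 places had a median of 4 other combined regions within 10 kb, and 4.95% had none. The other 1309 had a median of 3, and 9.40% had none. Among the 25 strongest the median was 3 and 2 had none.

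Width differed between strong and weak regions, but not in 1 direction along the order. The usual width, which 942 or 63.2% of the chromosome III regions had exactly, was 460 bp. Wider regions numbered 80, or 5.37%, against 5.32% on the other chromosomes and 5.33% of all combined regions, and 469 or 31.5% were narrower, against 30.4%. The median was 460 bp on III and elsewhere in the combined list. It was likewise the same on III as elsewhere within each replicate list, at 460, 476 and 444 bp in replicates 1, 2 and 3. The difference was thus 0 in all 3 (exact sign-flip permutation p = 1, adjusted p = 1). In these lists 95.5% ± 1.17 of III regions and 95.7% ± 1.32 of the others had exactly their list's median width (SD, n = 3). The medians were therefore bound to be equal, and this test cannot tell whether widths differ. Within III the strongest 250 places of the combined list held no region of the usual width among 50, with a median of 424.5 bp and 40.0% wider than usual. From place 1001 to 2000 the median was 243 bp and 87.6% were narrower. From place 6001 onwards 96.8% had the usual width. The other chromosomes followed the same course, with medians of 457.5 and 247 bp in the first 2 of these classes. Most weak regions of III thus shared 1 width.

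**Figure D5:**
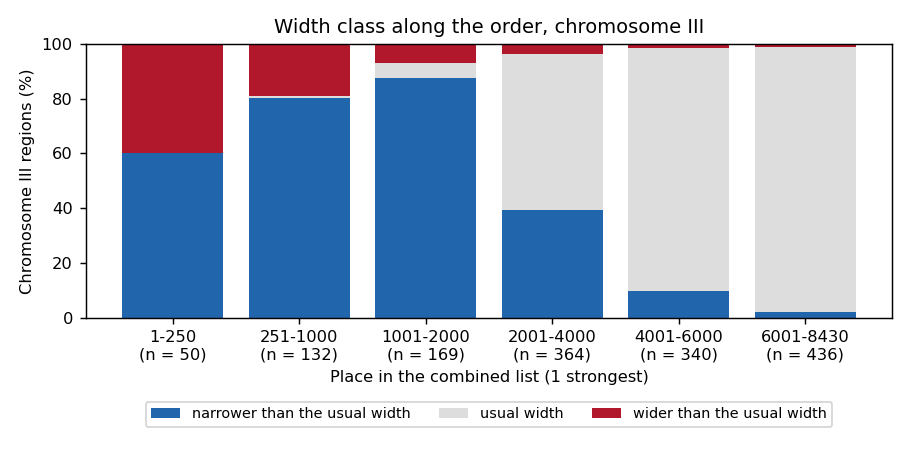
Share of chromosome III regions narrower than, equal to and wider than the usual 460 bp, by class of place in the combined list. In the first 250 places 60.0% are narrower and 40.0% wider, and from place 6001 onwards 96.8% have the usual width.

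The widest regions of III were not its strongest. The widest, from 10904104 to 10905574, spans 1471 bp and is listed at 2 places, 3940 and 5030, with identical borders. It belongs to the group of 6 just described, and whether it lies at unc-119 was likewise not tested. It met regions at places 3200, 3870 and 2546 of replicates 1, 2 and 3. The next, from 12425554 to 12426900 (1347 bp) and from 12427343 to 12428513 (1171 bp), lie less than 1 kb apart at combined places 2920 and 2638. The second of these stood at 5465, 4016 and 481 in replicates 1, 2 and 3, so that replicate 3 put it far higher than the others. The strongest site of III, at 935 bp, is the fifth entry by width. The narrowest regions were 115 bp wide, and the 5 named first by position lay at combined places 2360 to 5792, from 87302 to 3621747.

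Replicates agreed on chromosome III about as well as elsewhere. Of the III regions of replicate 1, 3153 or 58.1% were met by at least 1 bp in both other lists, against 58.8% on the other chromosomes and 58.7% of all its nuclear regions. In replicate 2 the shares were 58.6% on III, 59.7% elsewhere and 59.5% in all. In replicate 3 they were 61.03% on III, 58.1% elsewhere and 58.6% in all. The difference was -0.73, -1.16 and 2.95 percentage points, or 0.35 ± 2.26 (SD, n = 3; exact sign-flip permutation p = 1, adjusted p = 1). Agreement fell along the order on III, with 97.6% ± 1.42 met by both others in the first 3000 places, 64.1% ± 2.04 from place 9001 to 15000 and 34.9% ± 3.05 from 21001 onwards (SD, n = 3). The order of shared regions was also alike: Spearman's rho across matched III regions was 0.73 for replicates 1 and 2 (3160 regions), 0.70 for 1 and 3 (2910) and 0.71 for 2 and 3 (2867). On the other chromosomes it was 0.72, 0.71 and 0.70. These points share libraries, and no p is given for them.

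Combined regions of III were met by all 3 replicate lists in 1434 of 1491 cases, or 96.2% (Wilson interval 95.1 to 97.04%), against 96.3% on the other chromosomes and 96.3% of all. The other 57 had a median combined place of 7136, and 1 of them was met by a single list. Replicate 3 lacked 40 of them, replicate 1 lacked 9 and replicate 2 lacked 9. These are 2.68%, 0.60% and 0.60% of the III regions, against 2.25%, 0.61% and 0.91% on the other chromosomes. Among the 182 within the first 1000 places, 3 lacked a replicate. The region from 6464136 to 6464532, at combined place 422, stood at places 290 and 482 of replicates 2 and 3 and met no region of replicate 1. The nearest replicate 1 region was 406 bp away, at place 26407. The region from 5031297 to 5031756, at combined place 707, stood at 1061 and 474 in replicates 1 and 3 and was lacking in replicate 2, where the nearest region was 1340 bp away at place 22484. The region from 1681066 to 1681293, at combined place 874, stood at 836 and 875 in replicates 2 and 3, and the nearest replicate 1 region was 914 bp away at place 21882. No region of the other 5 chromosomes within the first 1000 combined places, of 818, lacked a replicate. In the other direction, 125 III regions of replicate 1 ranked in the first 1000 of each replicate list, and none of them was missing from the combined list. With the first 3000 places of each list, 3 of 343 were missing from it. They lie at 5591851 to 5591994, at 11236675 to 11237134 and at 13771042 to 13771501, and were chosen after their values were seen. The last is 59 bp short of the highest coordinate listed on III and stood at places 2877, 2403 and 2956. No matching counts for the other chromosomes are given here, so whether 3 of 343 is usual for these lists cannot be told.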

How the data were processed

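Region lists deposited by the authors were used for each of 3 ChIP replicates, together with 1 combined list. Per the file headers coordinates are on WormBase WS220, and the lists name SPP with IDR as their source. Each deposited region has a score of unstated unit, which is tied at its highest value, so the number in the region's name served as the order of strength. For the aligner, versions, thresholds and the making of the combined list, the sources used here give nothing. The lists hold no read counts, so depth is unknown, and intervals cover counting error only. Separate cultures are not stated for the replicates, so their spread may be technical.

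Per the labels, worms were grown at 20 °C and crosslinked with 2% formaldehyde. Regions with 1 bp or more in common counted as shared, and a region's place in another list is that of the strongest overlapping region. Chromosome lengths were taken as the last coordinate listed. Mitochondrial regions were left out. Gaps lie between merged stretches, and 50 kb windows count regions by midpoint. Differences were tested over the 3 replicates by exact two-sided sign-flip permutation, with Benjamini-Hochberg adjustment over 8 tests. Named were the 25 strongest regions of III, the 5 densest windows, the 5 longest gaps, the 5 widest and 5 narrowest regions, and the 3 strongest not met by every replicate list. Members, comparisons and alternatives were chosen with earlier results of these data known. Python 3.11.15, numpy 2.4.6, pandas 2.3.3, scipy 1.17.1 and matplotlib 3.10.9 were used, and the code was tested on simulated lists.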

Additional observations from a re-analysis of the deposited data

How the results depend on the processing

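No paired analysis was possible because replicate numbers are shared only with the input libraries, which were not analysed here. Depth is unknown, so its effect on weak regions could not be examined. Alternatives for empty windows and for III against the other autosomes were chosen after seeing the data. The density ratio of III moved by less than the spread between replicates under each of its 8 alternatives, and so did replicate agreement under each of its 6. The cause was not tested for any of the following changes. On III the central ratio, 1.34, was 1.05 in the replicate lists, 1.49 with the inner 2 of 4 equal parts taken as the centre, and 1.02 to 1.09 with a replicate left out. Relative to the other autosomes it was 0.82, and 0.90 in the strongest 25% and 0.87 with 4 parts. The ratio of left to right, 0.89, was 0.85 in the strongest 50%, turned to 1.10 in the strongest 25%, and was 0.97 in the replicate lists, 0.73 for the outermost of 4 parts and 0.967 to 0.983 with a replicate left out. The excess of III in strong regions, 0.42 percentage points, was 0.61 for the first 4000 places, turned to -0.036 in the replicate lists, and ran from -0.10 to 0.059 with a replicate left out. The excess of short gaps, 2.48 points, was 0.60 at 500 bp and 0.92 to 1.98 with a replicate left out. Median width differed by 2 bp in the strongest 25%. The difference in empty windows, -14.5 points, was -17.6 with 25 kb windows, -6.08 with 100 kb windows, -11.8 with shifted windows, -9.23 in the strongest 25%, -6.91 in the replicate lists and -8.07 to -6.10 with a replicate left out.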
